A study of Marchantia polymorpha with 12 samples.

Results

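MpABI3A, MpABI5A and MpABI5B are 3 genes for transcription factors of the abscisic acid response in the liverwort Marchantia polymorpha. They were picked by identifier from a table of 18336 genes. MpABI3A is Mp5g08310, MpABI5A is Mp2g23600 and MpABI5B is Mp2g22820. Their identifiers place the first on chromosome 5 and the other two on chromosome 2. Together they had 4 of the 23399 transcript models listed: MpABI3A and MpABI5A had 1 each, and MpABI5B had 2. The genome build is not given in the sources used here, so no coordinates are printed.

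RNA was sequenced from whole thalli with rhizoids, grown from gemmae for 3 weeks, in 4 groups of 3 libraries that carry the letters A, B and C. Tak-1 is the male wild type and Tak-2 the female wild type. Mpfer-1 is a male line whose genotype is given as a knockdown of the receptor-like kinase gene MpFER, and Mpmri-1 a female line given as a knockdown of the kinase gene MpMRI. Both lines have short rhizoids that burst, and each was set against the wild type of that sex. Each mutation is represented by 1 line, so when the mutants are compared with each other, the line, its sex and the gene targeted cannot be told apart. The labels do not say that the libraries of a group came from separate cultures, so the p-values measure the spread between these libraries, which may be technical.

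Abscisic acid is a plant hormone of drought and dormancy. In flowering plants it binds PYR/PYL receptors, which then hold back clade A PP2C phosphatases and so release SnRK2 kinases, which phosphorylate bZIP factors of the ABI5 type. ABI5-type proteins bind promoter elements with an ACGT core, and ABI3, a factor with a B3 domain, acts with them on genes for late embryogenesis abundant (LEA) proteins, which protect drying cells. Liverworts make no seeds, but abscisic acid raises their tolerance of drying and keeps gemmae, the asexual propagules, dormant, and MpABI3A has been linked to that dormancy.

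Library totals ran from 25548038 to 35313222 estimated counts. Levels are given as CPM, which are counts scaled to a common library size after adjustment by TMM, a method that takes most genes as unchanged. TMM factors lay between 0.798 and 1.19 and were above 1 in each Mpfer-1 library and below 1 in each Mpmri-1-labelled library. Of the targeted genes, MpFER fell by 0.78 on the log2 scale in Mpfer-1 against Tak-1 (SE 0.081, adjusted p by edgeR 7.18e-06). MpMRI went against its label: it rose by 1.40 from Tak-2 to the libraries labelled as its knockdown (SE 0.078, adjusted p by edgeR 4.42e-08), and those are called Mpmri-1-labelled libraries throughout. Of the tissue markers, the rhizoid gene MpRSL1 (listed as MpBHLH14) had 15.3 to 20.3 CPM in Tak-1, 17.8 to 19.3 in Mpfer-1, 8.70 to 9.32 in Tak-2 and 9.16 to 12.05 in the Mpmri-1-labelled libraries. The small subunit gene of the photosynthetic enzyme Rubisco, MpRBCS, fell from 265 to 308 CPM in Tak-1 to 76.0 to 89.1 CPM in Mpfer-1 (log2 fold change -1.81, edgeR adjusted p 4.89e-06). It had 137 to 193 CPM in Tak-2 and 184 to 294 CPM in the Mpmri-1-labelled libraries (0.42, edgeR adjusted p 0.0507). Of the germ cell genes, MpBNB had 2 counts in all 12 libraries, and MpRKD fell from Tak-2 to the Mpmri-1-labelled libraries (149 to 94.0 CPM, log2 fold change -0.67, edgeR adjusted p 4.26e-05) and was not called in Mpfer-1 (-0.066, edgeR adjusted p 0.548).

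In both mutant lines 2 of the 3 genes rose and 1 fell. In Mpfer-1 against Tak-1, 29.1% of the 14044 genes tested were called higher and 27.1% lower at an adjusted p under 0.05 (edgeR quasi-likelihood test, Benjamini-Hochberg). In the Mpmri-1-labelled libraries against Tak-2 these shares were 33% and 31.1%. MpABI3A and MpABI5B were higher and MpABI5A lower in each, and the mutant and wild-type libraries did not overlap for any of the 3 genes in either sex. How many of all genes separate in that way was not counted, so the separation is no result about the 3 genes. Calls were common in these data, at 56.2% and 64.1% of genes in either direction, so the number of calls among the 3 genes is no result about them. Because whole plants were sequenced, more or fewer cells of a type and more or less RNA per cell cannot be told apart.

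**Figure D1:**
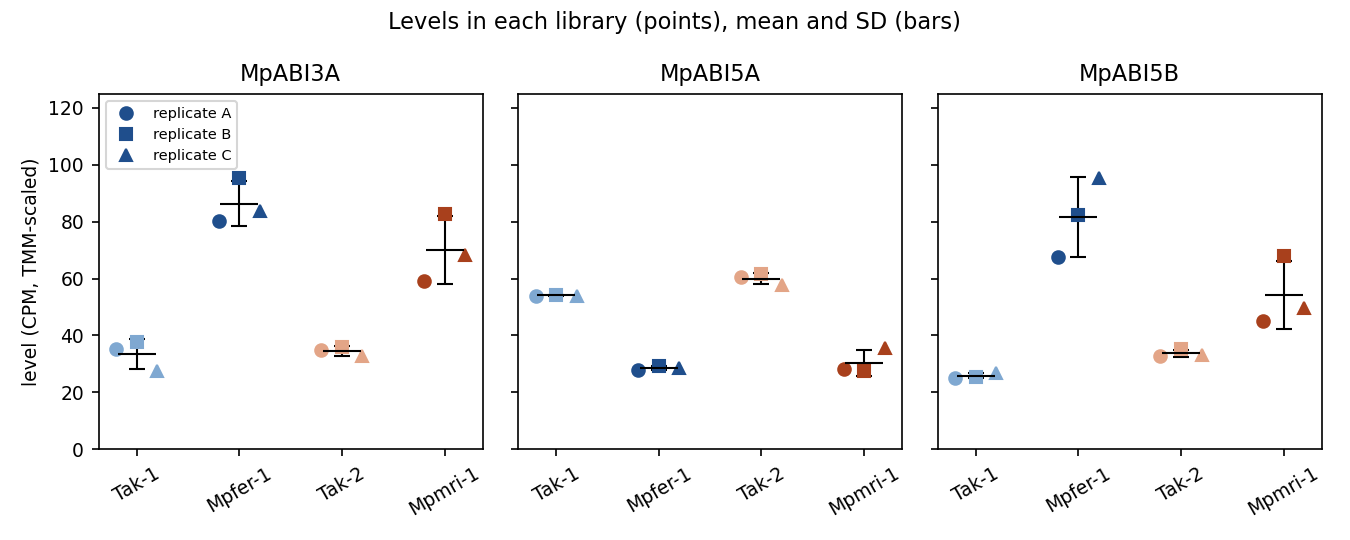
Level of each gene in CPM (y axis) in each library (points, replicate letters by symbol) of the 4 groups, with the group mean and SD (bars, n = 3). MpABI3A and MpABI5B sit above both wild types in every Mpfer-1 library and in every Mpmri-1-labelled library, and MpABI5A sits below them.

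MpABI3A, the B3 domain factor, had 35.1, 37.6 and 27.7 CPM in Tak-1 replicates A, B and C and 80.1, 95.3 and 83.7 CPM in Mpfer-1. Its levels were 34.8, 36.1 and 32.6 CPM in Tak-2, as against 59.2, 82.8 and 68.4 CPM in the Mpmri-1-labelled libraries. All 6 mutant libraries lay above all 6 wild-type libraries. The mean rose from 33.5 ± 5.15 to 86.3 ± 7.93 CPM in Mpfer-1 (SD, n = 3), a 2.58-fold higher level with a log2 fold change of 1.37 (SE 0.14, edgeR adjusted p 5.18e-06). The Mpmri-1-labelled libraries gave a rise from 34.5 ± 1.76 to 70.1 ± 11.9 CPM (SD, n = 3), a 2.03-fold higher level with a log2 fold change of 1.02 (SE 0.14, edgeR adjusted p 4.05e-05). More positive log2 fold changes than that of MpABI3A were found for 8.96% of the genes tested in Mpfer-1 and for 15.7% in the Mpmri-1-labelled libraries.

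The order of the MpABI3A group means was Tak-1, Tak-2, Mpmri-1 and Mpfer-1 from low to high. Only the middle step of that order was called. The wild types did not differ beyond their spread (log2 fold change 0.046, 95% interval -0.25 to 0.34, edgeR adjusted p 0.830). The upper step was not called either (Mpmri-1 against Mpfer-1 -0.30, 95% interval -0.59 to -0.0096, edgeR adjusted p 0.0776), and Mpmri-1 replicate B lay within the Mpfer-1 range. The rise was smaller in the Mpmri-1-labelled libraries by 0.34 on the log2 scale, which was not called (95% interval -0.76 to 0.068, edgeR adjusted p 0.169). Under scaling by library totals without TMM both were called, with a difference between the mutant effects of -0.65 (edgeR adjusted p 0.0344) and between the mutant lines of -0.72 (adjusted p 0.00194). Without Mpmri-1 replicate B the difference between the effects was -0.48 and was called (adjusted p 0.0477).

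MpABI5A, one of the bZIP factors of the ABI5 type, stood at 54.0, 54.3 and 54.0 CPM in Tak-1 replicates A, B and C, and at 27.9, 29.1 and 28.5 CPM in those of Mpfer-1. Its levels were 60.5, 61.6 and 57.7 CPM in Tak-2, as against 28.2, 27.4 and 35.5 CPM in the Mpmri-1-labelled libraries. Every mutant library lay below every wild-type library, and Mpmri-1 replicate C was the highest of the mutants. The mean fell from 54.1 ± 0.182 to 28.5 ± 0.611 CPM in Mpfer-1 (SD, n = 3), a 1.90-fold lower level with a log2 fold change of -0.92 (SE 0.089, edgeR adjusted p 4.04e-06). The Mpmri-1-labelled libraries gave a fall from 59.9 ± 2.003 to 30.3 ± 4.45 CPM (SD, n = 3), a 1.97-fold lower level with a log2 fold change of -0.98 (SE 0.089, edgeR adjusted p 1.92e-06). More negative log2 fold changes were found for 11.5% and 10.05% of the genes tested.

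The Tak-1 libraries differed less in MpABI5A than counting alone would give on average. Their coefficient of variation was 0.337%, against a counting error of 2.40% for counts of 1623 to 1889, and the SE above also draws on the spread of other genes. Among the Mpmri-1-labelled libraries the coefficient of variation was 14.7%. The falls in both lines were close in size: their difference was -0.056 on the log2 scale with a 95% interval from -0.33 to 0.22 (edgeR adjusted p 0.751). The means ran from Mpfer-1 over Mpmri-1 and Tak-1 to Tak-2. The lowest pair did not differ beyond its spread (log2 fold change 0.091 for Mpmri-1 against Mpfer-1, adjusted p 0.407), but that value turned to -0.33 and was called under scaling by library totals (adjusted p 0.0312). The wild types did not overlap in MpABI5A, and the test did not call their difference of 0.15 (95% interval -0.043 to 0.34, edgeR adjusted p 0.217). Without Mpmri-1 replicate C that difference was called at 0.15 (edgeR adjusted p 0.0467).

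MpABI5B, the other bZIP factor of the ABI5 type, stood at 25.2, 25.4 and 26.8 CPM in Tak-1 replicates A, B and C, and at 67.4, 82.2 and 95.2 CPM in those of Mpfer-1. Its levels were 32.7, 35.2 and 33.2 CPM in Tak-2, as against 45.2, 67.9 and 49.7 CPM in the Mpmri-1-labelled libraries. The wild types were tight, and both mutant groups were wide. The mean rose from 25.8 ± 0.884 to 81.6 ± 13.9 CPM in Mpfer-1 (SD, n = 3), a 3.16-fold higher level with a log2 fold change of 1.66 (SE 0.15, edgeR adjusted p 2.60e-06). The rise in the Mpmri-1-labelled libraries was from 33.7 ± 1.33 to 54.2 ± 12.01 CPM (SD, n = 3), a 1.61-fold higher level with a log2 fold change of 0.69 (SE 0.15, edgeR adjusted p 0.00154). More positive log2 fold changes were found for 7.41% of the genes tested in Mpfer-1 and for 21.6% in the Mpmri-1-labelled libraries. Without Mpmri-1 replicate B, the highest of its group, the latter log2 fold change was 0.49 and was still called (adjusted p 0.00495).

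MpABI5B was the 1 of the 3 genes whose change was called different between the lines. Its rise was smaller in the Mpmri-1-labelled libraries by 0.97 on the log2 scale (log2 difference -0.97, SE 0.21, 95% interval -1.43 to -0.52, edgeR adjusted p 0.00429), where 37.3% of all genes were called and 16.3% in that direction. It was also lower in those libraries than in Mpfer-1 (log2 fold change -0.59, SE 0.15, edgeR adjusted p 0.00575), a direction called for 24.2% of genes, although Mpmri-1 replicate B, at 67.9 CPM, lay just above Mpfer-1 replicate A, at 67.4 CPM. Between the wild types the groups did not overlap, and Tak-2 had a 1.31-fold higher level. That step was not called by edgeR (log2 fold change 0.38, 95% interval 0.059 to 0.71, adjusted p 0.0640) and was called by DESeq2 (0.39, adjusted p 0.0437), by edgeR on the wild types alone (0.38, adjusted p 0.00170) and by edgeR without Mpmri-1 replicate A or B (adjusted p 0.0432 and 0.0192). Between the wild types 0 of the 3 genes were called by edgeR, where 35.1% of all genes were; 1 had an unadjusted p under 0.05, DESeq2 called 1 and limma voom 0. All steps of the MpABI5B order of Tak-1, Tak-2, Mpmri-1 and Mpfer-1 other than this lowest one were called.

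**Figure D2:**
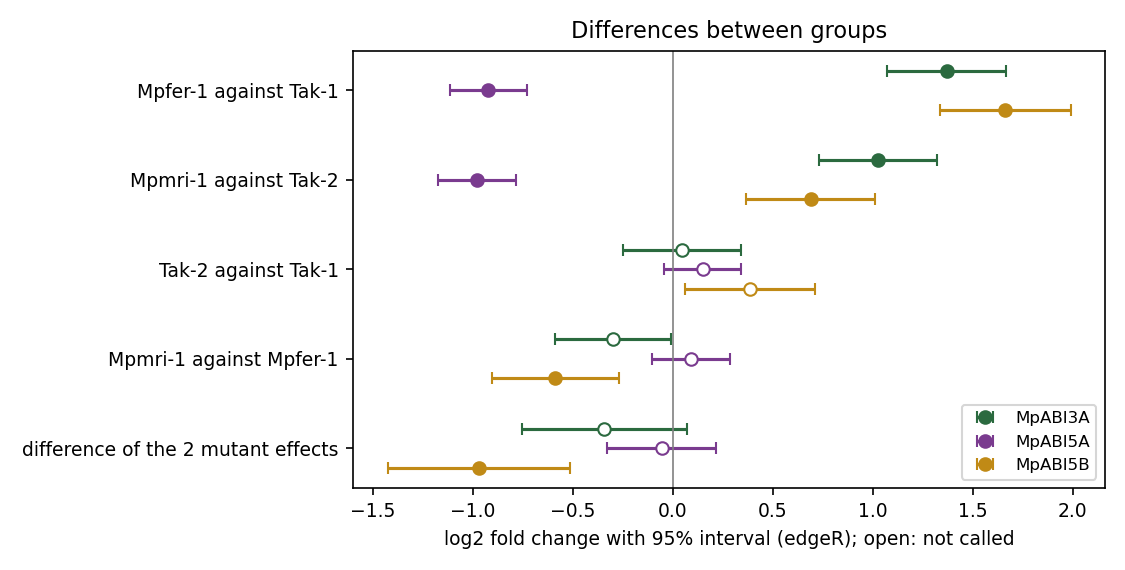
Log2 fold change of each gene (x axis) with its 95% interval for 4 comparisons of groups and for the difference between both mutant effects. Filled points were called at an adjusted p under 0.05. MpABI3A and MpABI5B lie right of 0 and MpABI5A left of 0 in both mutant comparisons, and MpABI5B has the one called difference between the effects, at -0.97.

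The 2 transcript models of MpABI5B, Mp2g22820.1 and Mp2g22820.2, share reads that the authors' estimate divided between them, and the reference annotation also lists 2 proteins for this gene. In every library Mp2g22820.2 held most of the counts. Mp2g22820.1 took 11.6%, 16.8% and 16.2% in Tak-1, 17.6%, 19.5% and 19.8% in Mpfer-1, 19.5%, 11.9% and 20.3% in Tak-2 and 8.57%, 17.4% and 13.1% in the Mpmri-1-labelled libraries. The 4 groups overlapped, apart from Mpfer-1, which lay above each Tak-1 library and each Mpmri-1-labelled library. Over all 12 libraries the share was 16.0% ± 3.85 (SD, n = 12).

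Both models rose in Mpfer-1. Mp2g22820.2 rose from 21.95 ± 0.763 to 66.0 ± 10.5 CPM and Mp2g22820.1 from 3.85 ± 0.798 to 15.6 ± 3.48 CPM (SD, n = 3), with log2 fold changes of 1.59 (SE 0.14, edgeR adjusted p 8.56e-06) and 2.02 (SE 0.37, edgeR adjusted p 0.00114). Of 17665 transcript models tested, 22.5% were called higher there. In the Mpmri-1-labelled libraries, where 27.4% of models were called higher, Mp2g22820.2 rose from 27.9 ± 2.66 to 46.8 ± 8.05 CPM (SD, n = 3; log2 fold change 0.77, SE 0.14, edgeR adjusted p 0.000847). Mp2g22820.1 had 5.78 ± 1.36 CPM in Tak-2 and 7.40 ± 4.02 CPM in those libraries (SD, n = 3), and its log2 fold change of 0.38 was not called (SE 0.36, 95% interval -0.42 to 1.18, edgeR adjusted p 0.405). Without Mpmri-1 replicate B it was -0.13. The split between the models was tested directly, as the departure of Mp2g22820.1 from the change of its gene. It was 0.35 in Mpfer-1 and -0.33 in the Mpmri-1-labelled libraries on the log2 scale, and neither was called (edgeR diffSpliceDGE, unadjusted p 0.315 and 0.360, adjusted p 1), where 1.57% and 2.07% of 6129 models were. With 82.6 to 773 counts per library, the minor model was measured with more error than the gene.

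**Figure D3:**
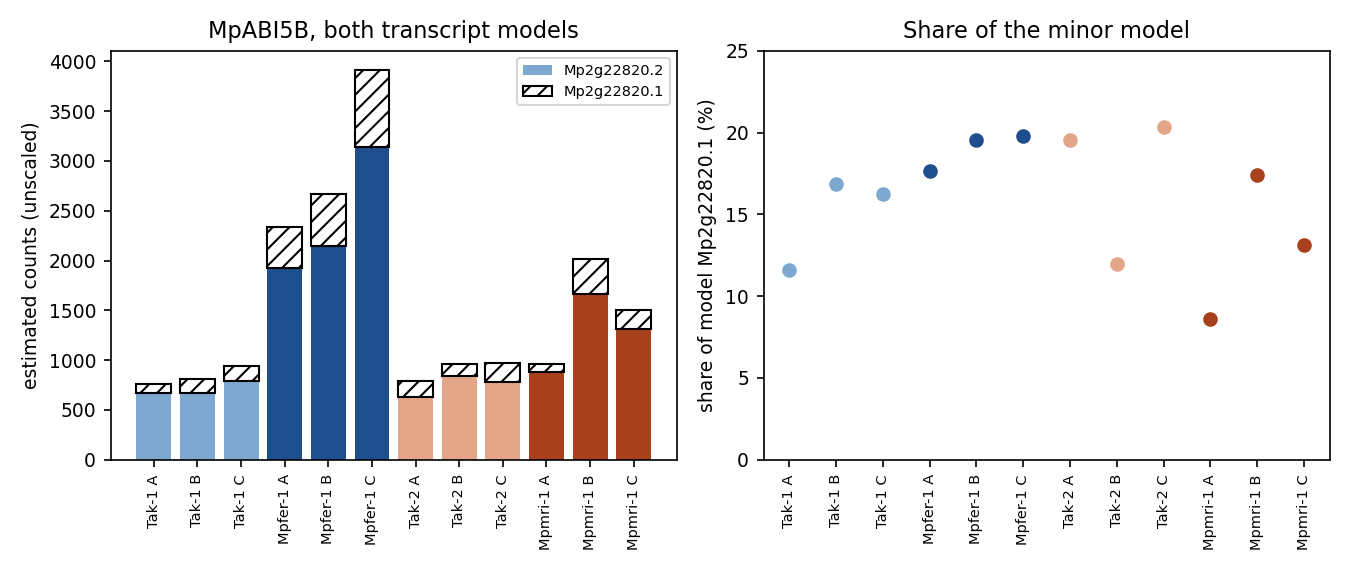
Left: estimated counts of both transcript models of MpABI5B, stacked, in each library without scaling (solid, Mp2g22820.2; hatched, Mp2g22820.1). Right: share of Mp2g22820.1 in percent, which ran from 8.57% to 20.3%.

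The ratio of one gene to another within a library does not depend on the scaling between libraries. Gene lengths were not used here, so the size of a ratio is not a ratio of molecules, and only its change between groups can be read. The ratio of MpABI3A to MpABI5A counts was 0.650, 0.692 and 0.513 in Tak-1 and 2.87, 3.27 and 2.94 in Mpfer-1. It was 0.575, 0.586 and 0.566 in Tak-2 and 2.10, 3.02 and 1.93 in the Mpmri-1-labelled libraries. Each mutant library lay above each wild-type library, and the geometric mean of the ratio was 4.93-fold higher in Mpfer-1 and 4.003-fold higher in the Mpmri-1-labelled libraries.

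The ratio of MpABI5B to MpABI5A rose from 0.477 ± 0.0174 in Tak-1 to 2.86 ± 0.463 in Mpfer-1 and from 0.562 ± 0.0186 in Tak-2 to 1.83 ± 0.574 in the Mpmri-1-labelled libraries (SD, n = 3), 5.94-fold and 3.15-fold higher by geometric means. For both ratios in both sexes the exact two-sided permutation p was 0.1, the smallest that 3 libraries against 3 allow. Of the counts for the pair of ABI5-type genes, MpABI5B held 32.3% ± 0.791 in Tak-1 and 73.8% ± 3.12 in Mpfer-1, and 36.0% ± 0.765 in Tak-2 and 63.7% ± 6.73 in the Mpmri-1-labelled libraries (SD, n = 3). The sum of the pair was 79.9 ± 0.789 CPM in Tak-1 and 110 ± 14.2 CPM in Mpfer-1, and 93.6 ± 3.00 CPM in Tak-2 as against 84.6 ± 10.9 CPM in the Mpmri-1-labelled libraries (SD, n = 3). The ratio of MpABI3A to MpABI5B overlapped between Mpfer-1 and Tak-1 (1.08 ± 0.171 and 1.30 ± 0.238, exact two-sided permutation p 0.3). It was higher in each Mpmri-1-labelled library than in Tak-2 (1.30 ± 0.0793 against 1.02 ± 0.0396, SD, n = 3; exact two-sided permutation p 0.1, the smallest possible).

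Replicates within a group were used to ask whether the 3 genes vary together apart from the group means. The deviations of log2 CPM from the group means were correlated over the 12 libraries for 3 pairs, with exact two-sided permutation tests over 1296 orders within groups and adjustment over the pairs. MpABI3A and MpABI5B had Pearson r 0.507 (exact permutation p 0.234, adjusted 0.701) and Spearman rho 0.371 (exact permutation p 0.336, adjusted 0.799). Without Tak-1 replicate C and Mpmri-1 replicate B, the libraries farthest from the median in MpABI3A, r was 0.487. MpABI3A and MpABI5A had r -0.0116 (exact permutation p 0.978, adjusted 0.978) and rho 0.266 (exact permutation p 0.532, adjusted 0.799), and r was 0.333 without the same libraries. MpABI5B and MpABI5A had r -0.223 (exact permutation p 0.824, adjusted 0.978) and rho -0.0280 (exact permutation p 0.971, adjusted 0.971), and r was 0.205 without Mpfer-1 replicate C and Mpmri-1 replicate B. None of the 3 pairs passed the test at this number of libraries, and the sign of the last 2 rested on those libraries.

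**Figure D4:**
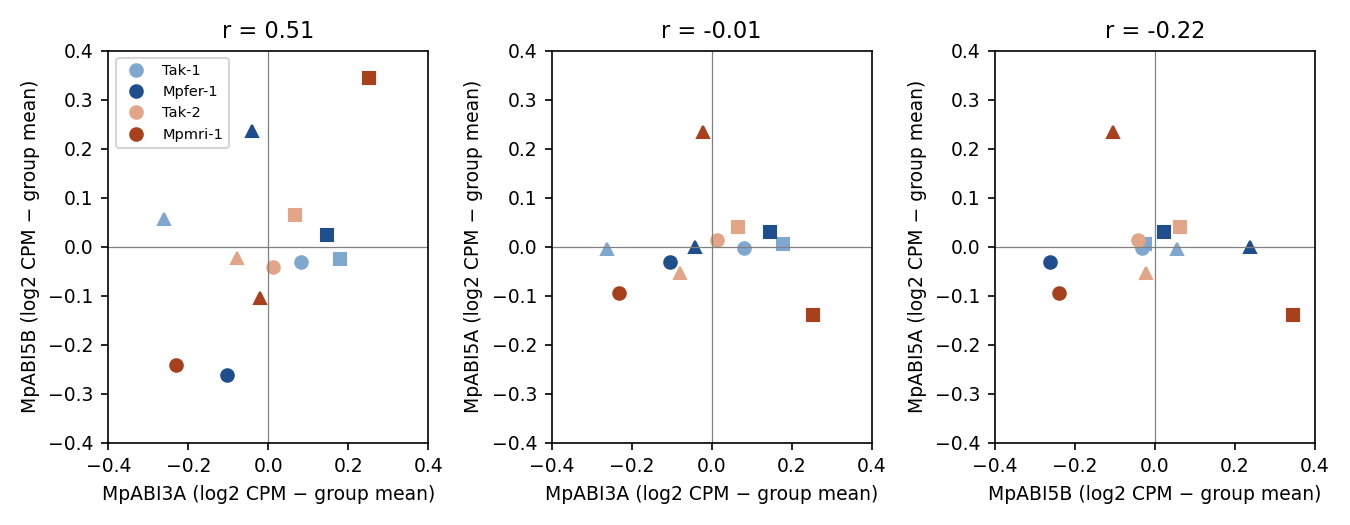
Deviation of log2 CPM from the group mean for each pair of genes, 1 point per library (colour, group; circle, square and triangle, replicates A, B and C). Mpmri-1 replicate B is highest for both MpABI3A and MpABI5B, and MpABI5A varies little outside the Mpmri-1-labelled libraries.

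Likeness of pattern was described by Pearson r of log2 CPM over all 12 libraries with 12523 other genes of at least 1 CPM on average. It mostly reflects the 4 group means and is no test. The 5 genes most like MpABI3A were Mp5g02130, Mp2g01400, MpACOS4 (Mp5g07170), Mp1g06190 and Mp3g02670, with r from 0.987 down to 0.980. Mp5g02130 had 11.04 CPM in Tak-1, 146 in Mpfer-1, 11.9 in Tak-2 and 87.8 in the Mpmri-1-labelled libraries. Those most like MpABI5A were Mp6g15140, MpARF1 (Mp1g12750), an auxin response factor, Mp3g15510, MpHCT (Mp7g12690) and Mp4g18210, with r from 0.997 down to 0.990. MpARF1 had 152, 98.0, 164 and 99.8 CPM in Tak-1, Mpfer-1, Tak-2 and the Mpmri-1-labelled libraries. Those most like MpABI5B were Mp7g19140, Mp2g22120, MpC2H2-21 (Mp3g11570), Mp5g16330 and Mp6g07550, with r from 0.986 down to 0.976. MpC2H2-21 had 0.243, 20.7, 0.726 and 6.17 CPM in the same order of groups. The lists share 0 genes. In the order of likeness MpABI5B stood at place 292 for MpABI3A, and MpABI3A at place 131 for MpABI5B. MpABI5A stood at place 12319 and 12008 for these genes, near the end of the order.

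The rest of the abscisic acid pathway was taken from 19 symbols in the reference table, the 3 genes included, of which 11 had enough counts to be tested. Beside the 3 genes, 8 were tested. In Mpfer-1, 3 rose, 2 fell and 3 were not called, with a median log2 fold change of 0.11 against 0.022 for all genes. In the Mpmri-1-labelled libraries, 5 rose, 1 fell and 2 were not called, with a median of 0.33 against 0.0015. Calls in either direction were made for 56.2% and 64.1% of all genes, so the number of calls is no result about this list. Under scaling by library totals the counts became 4 and 1 in Mpfer-1 and 5 and 2 in the Mpmri-1-labelled libraries.

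Among genes of hormone synthesis, MpNCED, for the dioxygenase that commits carotenoids to abscisic acid, rose from 0.730 ± 0.0849 to 5.18 ± 1.40 CPM in Mpfer-1 (log2 fold change 2.82, SE 0.35, edgeR adjusted p 2.96e-05) and in the Mpmri-1-labelled libraries from 0.520 ± 0.0268 to 2.29 ± 1.07 CPM (2.12, SE 0.38, edgeR adjusted p 0.000461; SD, n = 3). MpABA1, for zeaxanthin epoxidase, fell in both, by 0.64 and by 0.57 on the log2 scale (edgeR adjusted p 9.31e-05 and 0.000186). MpABA4, of the neoxanthin step, rose in Mpfer-1 (0.62, edgeR adjusted p 0.00190) and had a log2 fold change of -0.19 in the Mpmri-1-labelled libraries (edgeR adjusted p 0.244). MpCYP707A, for the hydroxylase that breaks the hormone down, rose in the Mpmri-1-labelled libraries (2.93, SE 0.27, edgeR adjusted p 2.19e-06) from a level of 0.706 CPM in Tak-2, which was below the 3.58 CPM of Tak-1, and had 0.070 in Mpfer-1 (edgeR adjusted p 0.817).

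Of the signalling genes, the kinase gene MpSNRK2A rose in both lines (0.35 and 0.36, edgeR adjusted p 0.00163 and 0.00110). MpSNRK2B fell in Mpfer-1 (-0.30, edgeR adjusted p 0.00138) and had 0.052 in the Mpmri-1-labelled libraries (edgeR adjusted p 0.467), and under scaling by library totals neither was called, at -0.12 and -0.083. The receptor gene MpPYL1 and MpABCG25, named for a transporter of the hormone, rose in the Mpmri-1-labelled libraries (0.32 and 0.34, edgeR adjusted p 0.00201 and 0.00135) and were not called in Mpfer-1 (-0.11 and 0.15, edgeR adjusted p 0.192 and 0.0845). The untested genes were near or below detection in these thalli. Over all 12 libraries the receptor genes MpPYL2, MpPYL4 and MpPYL5 had 18, 10 and 20 counts, the channel genes MpSLAC1 and MpSLAC2 had 32 and 13, and the clade A phosphatase genes MpPP2C_A1, MpPP2C_A2 and MpPP2C_A3 had 7, 0 and 29. A count of 0 allows up to 3.

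**Figure D5:**
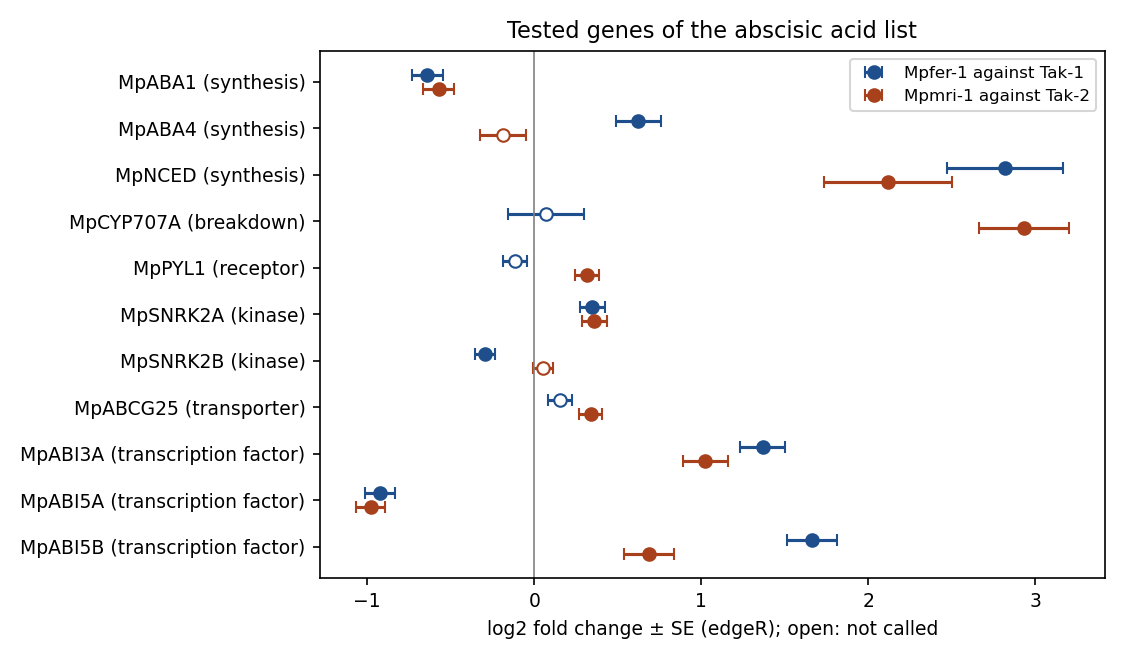
Log2 fold change (x axis) with its SE for the 11 tested genes of the abscisic acid list, by role, in both mutant comparisons (blue, Mpfer-1; brown, Mpmri-1-labelled libraries). Filled points were called. MpNCED and MpABI3A lie right of 0 and MpABA1 and MpABI5A left of 0 in both.

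Within their protein families, the ABI5-type genes lay at or near opposite ends. Of 15 bZIP genes, all tested, 3 rose and 10 fell in Mpfer-1 (median -0.27), and 3 rose and 4 fell in the Mpmri-1-labelled libraries (median -0.058). Among all genes, 29.1% rose and 27.1% fell in Mpfer-1, and 33% rose and 31.1% fell in the Mpmri-1-labelled libraries. Under scaling by library totals the bZIP counts were 4 and 4, and 2 and 5. MpABI5B had the most positive log2 fold change of the 15 in both comparisons. MpABI5A stood at place 14 in Mpfer-1, where MpBZIP9 had -1.33, and at place 15 in the Mpmri-1-labelled libraries. Of 7 genes with a B3 domain name, 6 were tested, and MpABI3A had the most positive value in Mpfer-1 and the second most positive in the Mpmri-1-labelled libraries, after MpB3-8 with 1.39.

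Genes for LEA proteins and dehydrins, which ABI3 and ABI5 act on in flowering plants, were described by their summed level. They summed to 1228, 1237 and 1299 CPM in Tak-1 and to 9907, 9404 and 14137 CPM in Mpfer-1, replicates A to C. They summed to 1676, 1559 and 1571 CPM in Tak-2 and to 7138, 12081 and 2905 CPM in the Mpmri-1-labelled libraries. A few genes weighed heavily in these sums. Of the mean sum of 11149 CPM in Mpfer-1, MpLEAL1 had 2283 CPM and MpLEA-like49 had 1620 CPM. The library with the highest sum in each mutant group, Mpfer-1 replicate C and Mpmri-1 replicate B, was also the one with the highest MpABI5B level. The other libraries ran the opposite way: Mpfer-1 replicate A had a higher sum than B but less MpABI5B (67.4 against 82.2 CPM), and Mpmri-1 replicate A had a higher sum than C but less MpABI5B (45.2 against 49.7 CPM). The lowest sum among the mutants, in Mpmri-1 replicate C, went with the highest MpABI5A level of the mutants and with an MpABI3A level between those of replicates A and B. Mpmri-1 replicate B had the highest MpABI3A level of its group (82.8 CPM) and its highest sum. In Mpfer-1 it was the reverse: replicate B had the highest MpABI3A level (95.3 CPM) and the lowest sum. Of 70 tested genes, 61 rose and 3 fell in Mpfer-1 and 59 rose and 4 fell in the Mpmri-1-labelled libraries. The all-gene shares called higher were 29.1% and 33%, and those called lower were 27.1% and 31.1%. However, some genes of this list, such as MpLEA-like34, MpLEA-like38 and MpLEA-like44, had 0 CPM in every wild-type library. Such genes passed the filter only through the mutant libraries and could only be called higher. The counts are therefore no test against the all-gene shares.

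Some markers of other cells moved with the mutants. The 3 oil body genes MpC1HDZ, MpERF13 and MpMYB02 (listed as MpR2R3-MYB2) summed to 46.2 to 61.2 CPM in Tak-1 and 85.3 to 111 CPM in Mpfer-1, and to 47.3 to 59.4 CPM in Tak-2 as against 87.1 to 89.9 CPM in the Mpmri-1-labelled libraries. In each line 2 of the 3 rose, MpC1HDZ (from 39.4 to 77.4 CPM and from 38.6 to 64.1 CPM) and MpMYB02. Most of the sum was MpC1HDZ. MpERF13 was called in neither line, with -0.39 in Mpfer-1 and 0.32 in the Mpmri-1-labelled libraries (edgeR adjusted p 0.0603 and 0.112). Of the gemma cup genes, MpGCAM1 rose from 2.53 to 4.27 CPM in Mpfer-1 (log2 fold change 0.75, edgeR adjusted p 0.00948). In the Mpmri-1-labelled libraries it rose from 0.387 to 3.33 CPM (3.09, edgeR adjusted p 1.34e-06), with Tak-2 itself below Tak-1. MpKAR was called in neither line (0.050 and -0.096, edgeR adjusted p 0.769 and 0.540). The sum of the pair was mostly MpKAR and does not show the change of MpGCAM1. That sum overlapped between mutants and wild types (29.3 to 36.4 CPM in Tak-1 and 30.9 to 44.3 in Mpfer-1, 26.4 to 30.6 in Tak-2 and 27.0 to 31.7 in the Mpmri-1-labelled libraries). The summed level of the epidermal gene MpNOP1 and of MpLAXR (listed as MpERF20) overlapped in Mpfer-1 (66.1 to 77.1 CPM in Tak-1 and 68.6 to 76.0 in Mpfer-1). That sum was higher in the Mpmri-1-labelled libraries (84.6 to 98.9 against 68.7 to 72.4 CPM), where both genes were called higher. MpLAXR alone rose there from 0.800 to 6.20 CPM (log2 fold change 2.95, edgeR adjusted p 5.43e-07), with Tak-2 itself below the 3.08 CPM of Tak-1. MpRSL1 was not called in either line (0.029 and 0.23, edgeR adjusted p 0.859 and 0.134). The falls of MpRBCS in Mpfer-1 and of MpRKD in the Mpmri-1-labelled libraries stood beside the changes of the 3 genes there. The part of these markers in the changes of MpABI3A, MpABI5A and MpABI5B was not tested.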

How the data were processed

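The authors deposited 1 table of estimated counts per transcript model, without scaling between libraries. The submitters' processing notes name FastQC, fastp and DESeq2; neither the quantifier nor the genome build and annotation is given in the sources used here. Estimated counts were summed by gene stem, rounded and tested with edgeR 4.0.16 (R 4.3.3; TMM, default filter, quasi-likelihood F test, 4 group means over 12 libraries, Benjamini-Hochberg over 14044 genes). SE is the log2 change over the root of F, and intervals are 95%. Transcript models were fitted the same way, and their split with diffSpliceDGE. Symbols of the assembly MpTak2_v7.1 were joined by locus number: 17416 genes had a counterpart, with as many isoforms in 90.2%, against 75.5% when shifted by 1 gene. Alternatives used DESeq2 1.42.0 and limma 3.58.1. The code was tested on simulated data. Named genes are the 3 genes, the abscisic acid list, the targeted genes and the 5 genes most alike by Pearson r. Members and lists were chosen with earlier results of these data known.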

Additional observations from a re-analysis of the deposited data

Results flagged for a closer look

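The difference between the effects of both lines was called by edgeR (adjusted p under 0.05) for 5 of the 11 tested genes of the abscisic acid list, against 37.3% of all genes. Values are the log2 fold change in the Mpmri-1-labelled libraries against Tak-2 minus that in Mpfer-1 against Tak-1. For MpABI5B it was -0.97 (adjusted p 0.00429). The value for MpCYP707A was 2.86 (adjusted p 0.000147), with Tak-2 itself at a lower level than Tak-1. MpABA4 had -0.81 (adjusted p 0.00705), MpSNRK2B had 0.35 (adjusted p 0.00899) and MpPYL1 had 0.43 (adjusted p 0.00646). With scaling by library totals the last pair were no longer called, at 0.037 and 0.12.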

How the results depend on the processing

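The calls of MpABI3A, MpABI5A and MpABI5B in both mutant comparisons kept their direction and their side of the threshold under all alternatives run: DESeq2 size factors, library totals, no filter, DESeq2, limma voom, the compared groups alone, each library left out and the replicate block. Library totals moved the all-gene median log2 fold change from 0.022 to 0.20 in Mpfer-1 and from 0.0015 to -0.13 in the Mpmri-1-labelled libraries. They also gave -0.65 for the difference of effects, -0.071 for Tak-2 against Tak-1 and -0.72 for Mpmri-1 against Mpfer-1 in MpABI3A, and -0.33 for the last in MpABI5A. Within groups they turned r to 0.390 for MpABI3A and MpABI5A and to 0.132 for MpABI5B and MpABI5A, and leaving out the 2 farthest libraries turned them to 0.333 and 0.205. For other genes, library totals turned MpMRI (0.115) and MpPYL1 (0.062) in Mpfer-1, and MpSNRK2B (-0.083) and MpFER (-0.052) in the Mpmri-1-labelled libraries. For MpABI5B between the wild types, DESeq2 gave 0.39 and the compared groups alone 0.38, both called. The cause of these changes was not tested.

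With 1 library left out, the difference of effects ran from -0.48 to -0.22 in MpABI3A and from -0.18 to 0.013 in MpABI5A. Tak-2 against Tak-1 ran from -0.077 to 0.14 in MpABI3A, from 0.13 to 0.17 in MpABI5A and from 0.35 to 0.41 in MpABI5B. For Mp2g22820.1, Mpmri-1 against Tak-2 ran from -0.13 to 0.68. Its difference of effects was -1.63 and called (adjusted p 0.0377), ran from -2.14 to -1.34, and was lost without any 1 of 9 libraries (all but Mpfer-1 replicate A, Tak-2 replicate B and Mpmri-1 replicate B). MpMRI in Mpfer-1 ran from -0.072 to 0.0066, the latter without Mpfer-1 replicate B, and MpCYP707A in Mpfer-1 ran from -0.20 without Mpfer-1 replicate C to 0.29.

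The replicate letters are shared by all groups. Same-letter libraries of a mutant and its wild type correlated in their deviations across genes by 0.052 to 0.19, and different-letter libraries by -0.15 to 0.085. The same-letter values were not over 0.1 in each pair, and the letters were not used as a pairing in the main test. Whether the letters mark shared handling was not tested. With the replicate block MpABI5B between the wild types was 0.38 and called (adjusted p 0.0490), and no other call of the 3 genes changed; genes higher and lower became 3944 and 3715 in Mpfer-1, from 4085 and 3808, and 4557 and 4277 in the Mpmri-1-labelled libraries, from 4641 and 4363. Counting error of the 3 genes was 1.80% to 3.57% per library. The spread between libraries was below it for MpABI5A in Tak-1 (0.337% against 2.40%) and in Mpfer-1 (2.14% against 3.13%) and for MpABI5B in Tak-1 (3.43% against 3.48%), and above it in the other gene and group pairs.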

Other observations

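Genes next to the 3 genes by locus number, 2 on each side, were looked at after the values of the 3 genes were known. Of these 12 genes, 7 had enough counts to be tested, and 0 rose in either line by edgeR. Among all genes, 29.1% and 33% were called higher in Mpfer-1 and in the Mpmri-1-labelled libraries, and 27.1% and 31.1% lower. With 7 genes these counts are no result about the neighbours. Beside MpABI5A, Mp2g23580 fell in both lines, with log2 fold changes of -1.25 in Mpfer-1 and -0.92 in the Mpmri-1-labelled libraries (edgeR adjusted p 1.59e-07 and 6.02e-07), and Mp2g23610 had -0.37 and -0.57 (edgeR adjusted p 0.0210 and 0.00163). In Mpfer-1, Mp2g23610 was not called under scaling by library totals. Nor was it called there without Tak-1 replicate A or C or any 1 of the 3 Mpfer-1 libraries (edgeR adjusted p up to 0.0811 with 1 library left out). Mp2g23620, also beside MpABI5A, fell in Mpfer-1 (-0.24, edgeR adjusted p 0.0123) and had -0.075 in the Mpmri-1-labelled libraries (edgeR adjusted p 0.366). Beside MpABI3A, Mp5g08340 fell in Mpfer-1 (-0.65, edgeR adjusted p 0.000955) and had 0.23 in the Mpmri-1-labelled libraries (edgeR adjusted p 0.123). Mp5g08290 fell in the latter (-0.38, edgeR adjusted p 0.0241) and had 0.011 in Mpfer-1 (edgeR adjusted p 0.953). Beside MpABI5B, MpUGT80 (Mp2g22830) fell in the Mpmri-1-labelled libraries (-0.39, edgeR adjusted p 0.0246) and had -0.092 in Mpfer-1 (edgeR adjusted p 0.587), and Mp2g22810 was called in neither line (-0.44 and 0.15, edgeR adjusted p 0.108 and 0.591).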
